A study of Saccharomyces cerevisiae with 6 samples.

Results

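The introns of 8 genes of the actin cytoskeleton and of the cortical patches where budding yeast takes up membrane were followed in libraries of a splicing mutant and of the wild type. The genes were chosen by name and function, with earlier results of these data known: ACT1 (YFL039C), COF1 (YLL050C), PFY1 (YOR122C), ARP2 (YDL029W), SAC6 (YDR129C), LSB3 (YFR024C-A), YSC84 (YHR016C) and PAL2 (YHR097C). Each has 1 targeted intron, so they give 8 of the 309 introns counted, and all 8 were among the 274 introns with enough reads to be tested (a mean of at least 10 reads per library). The mutant was prp2-1 (strain EJS7), which carries a temperature-sensitive allele of the spliceosomal ATPase Prp2, and it was compared with WT (strain EJS1). There were 3 libraries of prp2-1 and 3 of WT, replicates A to C of each. Cells of both strains grew in rich medium (YPD) at 25 °C and were moved to 37 °C for 15 minutes, so the WT cells had the same heat step. The labels name no other allele and do not say that replicates were separate cultures, so p-values measure only the spread between these libraries. The assay, MPE-seq (multiplexed primer extension), starts each cDNA from a primer placed downstream of an intron, so a read shows whether that intron had been removed. Each intron has its own primer, so read levels are compared between strains and not between genes.

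Actin is made as single molecules that join into filaments. In yeast, short branched filaments at the cell cortex drive the inward growth of endocytic vesicles: profilin feeds actin to growing ends, the Arp2/3 complex starts branches, fimbrin ties filaments together and cofilin takes them apart. Nuclear introns are removed by the spliceosome, which pairs its RNAs with the 5′ splice site and with the branch site of the intron, and Prp2 acts on the assembled spliceosome before the first catalytic step. The intron of ACT1 is a common substrate in yeast splicing work.

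The introns of 7 of the genes are shown first, because they are sequences whose removal was counted and their splicing signals differ among the genes. Each is read 5′ to 3′ on the coding strand from the R64 reference genome (RefSeq), with the 5′ splice site hexamer, the branch site heptamer TACTAAC and the last 3 bases in capitals. Every intron lies within the coding sequence, between the 2 coding exons of its gene. The ACT1 intron (chrVI:54378-54686, minus strand) is 309 bases long and only its ends are shown.
ACT1 first 30 bases, chrVI:54657-54686, minus strand: GTATGTtctagcgcttgcaccatcccattt
ACT1 last 100 bases, chrVI:54378-54477, minus strand: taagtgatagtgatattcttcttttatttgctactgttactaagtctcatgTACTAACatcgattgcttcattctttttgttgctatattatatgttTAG
COF1, chrXII:40222-40400, minus strand: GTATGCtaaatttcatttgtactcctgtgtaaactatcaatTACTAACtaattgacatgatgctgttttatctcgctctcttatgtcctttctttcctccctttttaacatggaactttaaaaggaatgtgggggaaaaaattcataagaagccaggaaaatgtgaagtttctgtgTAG
PFY1, chrXV:552666-552874, minus strand: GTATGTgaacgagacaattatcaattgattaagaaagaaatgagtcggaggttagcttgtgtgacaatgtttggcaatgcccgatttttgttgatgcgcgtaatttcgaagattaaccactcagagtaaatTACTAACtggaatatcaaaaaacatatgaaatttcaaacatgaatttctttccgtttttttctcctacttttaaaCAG
ARP2, chrIV:399362-399484, plus strand: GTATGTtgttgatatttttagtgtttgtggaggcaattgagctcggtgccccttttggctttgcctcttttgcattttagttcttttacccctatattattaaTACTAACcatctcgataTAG
LSB3, chrVI:203293-203386, minus strand: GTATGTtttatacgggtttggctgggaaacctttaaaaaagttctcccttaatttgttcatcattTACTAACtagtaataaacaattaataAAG
YSC84, chrVIII:138241-138408, minus strand: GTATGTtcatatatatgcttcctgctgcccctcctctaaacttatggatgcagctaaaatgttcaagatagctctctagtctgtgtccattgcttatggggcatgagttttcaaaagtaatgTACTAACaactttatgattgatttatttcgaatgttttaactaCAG
PAL2, chrVIII:298361-298484, minus strand: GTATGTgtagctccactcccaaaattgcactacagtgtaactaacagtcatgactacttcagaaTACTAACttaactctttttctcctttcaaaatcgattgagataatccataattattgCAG

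All 8 introns hold an exact TACTAAC on the coding strand, as do 82.5% of the 280 introns that could be placed on R64. The hexamer GTATGT opens 7 of the 8, against 73.2% of placed introns, and COF1 opens with GTATGC. The 3′ splice site is TAG in 4, CAG in 3 and AAG in LSB3, an ending that 4.64% of placed introns have. Lengths run from 94 bases in LSB3 to 309 in ACT1, with a median of 146 bases against 147 over the 247 tested introns with a position and 96 over those outside the ribosomal protein genes. The branch adenosine, the sixth base of TACTAAC, lies 47 bases into the COF1 intron and leaves 132 bases to its end. In ARP2 it lies 109 bases in and leaves 14, the shortest such tail of the 8. The intron follows 10 coding bases in ACT1, 13 in PFY1, 14 in COF1, 22 in ARP2, 47 in LSB3 and in YSC84, and 125 in PAL2. Outside the ribosomal protein genes, the 94 tested introns with both GTATGT and TACTAAC had a median of 75.6% unspliced reads in prp2-1 and 5.76% in WT, and the 63 lacking one or both had 97.3% in prp2-1 and 29.0% in WT. If kept in the RNA, each of the 8 introns puts a stop codon in frame within its own sequence, at intron base 6 in PFY1 at the earliest and at base 78 in ARP2 at the latest.

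**Figure D1:**
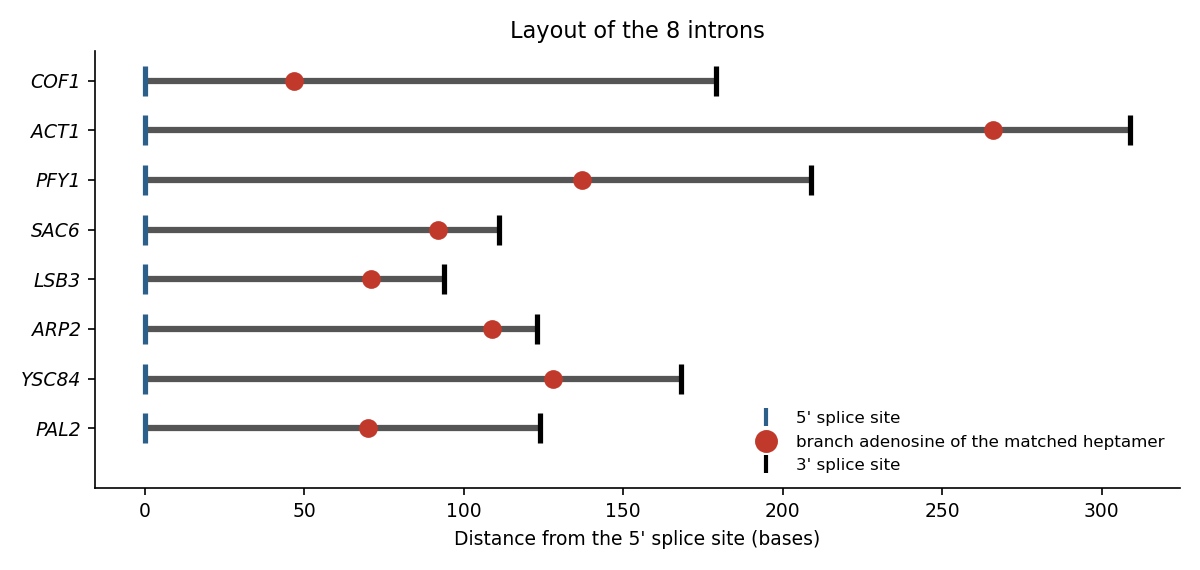
Layout of the 8 introns, with distance from the 5′ splice site in bases; the bar is the intron, the filled circle the branch adenosine of the matched TACTAAC, and the end marks are the splice sites. ACT1 is the longest at 309 bases, and COF1 has the longest stretch after the branch adenosine, 132 bases.

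Library totals were 1845258, 2671271 and 2269285 counted reads in prp2-1 replicates A, B and C, and 1612685, 1983661 and 2516774 in WT. Among 13 markers of mating type a or of meiosis, intron 1 of HMRA1 had 8 spliced and 1 unspliced reads over the prp2-1 libraries, against 16583 and 448 in WT. This gene has an identical copy at MAT in cells of mating type a, and the labels do not state the mating type of either strain. The 12 other marker genes together held 231 to 450 reads per 1000000 counted reads of a library (RPM) in prp2-1 and 123 to 153 in WT. REC114, a gene of meiotic recombination, held 123 to 254 of these RPM in prp2-1 libraries, against 2.48 to 7.55 in WT, and all but 1 of its 1136 reads in prp2-1 were unspliced. Without it the other 11 genes held 108 to 196 RPM in prp2-1 and 121 to 145 in WT, which overlapped. Spliced reads of the 12 genes were 21.1 to 22.1 RPM in prp2-1 and 44.6 to 67.5 in WT, and 8 to 12 of the 15 marker introns had 0 spliced reads in prp2-1 libraries, against 6 to 9 in WT. The part of these differences in the results was not tested. PRP2 has no intron in the table, so the mutation itself was not measured.

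The first comparison asked what share of the reads of each intron was unspliced. The reads count RNA present after the heat step, and RNA spliced before that step was not told apart from RNA spliced during it. All 8 introns were less completely spliced in prp2-1 than in WT by the unspliced percent (unspliced reads over spliced plus unspliced reads). The 2 groups did not overlap in any of the 8, but how many of all tested introns also had no overlap was not counted. The introns differed widely in extent. In prp2-1, COF1 averaged 12.4% ± 2.65 unspliced and PAL2 98.8% ± 0.419 (SD, n = 3 in each strain, as for all later SDs), against 2.16% ± 0.201 and 7.79% ± 1.04 in WT. The ratio of unspliced to spliced reads rose in 8 of 8 in the quasi-likelihood test of edgeR, at a Benjamini-Hochberg adjusted p under 0.05. Over all tested introns 93.4% were called higher, so 8 of 8 does not set these genes apart.

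Actin and the proteins that handle its monomers come first. ACT1, the single actin gene of yeast, had unspliced percents of 23.0, 16.4 and 20.3% in prp2-1 replicates A, B and C, against 2.71, 2.37 and 1.94% in WT. These rest on 13572 unspliced and 54522 spliced reads in prp2-1 and 1271 and 54396 in WT, summed over 3 libraries. Most ACT1 reads stayed spliced in every prp2-1 library, and the log2 change of the ratio was 3.37 (SE 0.365). COF1 encodes cofilin, which severs actin filaments. It was at 15.3, 10.1 and 11.8% in prp2-1, against 2.39, 2.10 and 1.9998% in WT. This was the lowest level in prp2-1 and the smallest change of the 8, at log2 2.66 (SE 0.345). The COF1 intron opens with GTATGC, and a link of that hexamer to the level or the change was not tested. PFY1, the profilin gene, had 23.3, 21.2 and 36.5% in prp2-1 and 2.95, 3.82 and 3.51% in WT, a log2 change of 3.35 (SE 0.365). Replicate C of prp2-1 stood above the other 2 for PFY1, with 5008 unspliced reads and 8724 spliced ones.

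The genes of branched and bundled filaments had higher unspliced percents in prp2-1 than these 3. ARP2 encodes an actin-related subunit of the Arp2/3 complex. Its unspliced percent was 89.5, 79.2 and 87.3% in prp2-1, against 10.2, 8.76 and 7.83% in WT. Spliced ARP2 reads numbered 125, 207 and 142 in prp2-1, against 669, 781 and 1189 in WT. Unspliced RNA was thus the larger part in each prp2-1 library, and the log2 change of the ratio was 5.95 (SE 0.388). SAC6, the fimbrin gene, had 49.1, 36.7 and 43.2% in prp2-1 and 1.47, 3.95 and 2.90% in WT. It has few reads: its WT libraries held 8, 29 and 29 unspliced reads, and the widest 95% Wilson interval of the 48 member percents was that of SAC6 in prp2-1 replicate A, 43.2 to 55.0%. Its log2 change was 4.73 (SE 0.422).

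The last 3 genes act at endocytic patches. LSB3 and YSC84 are paralogs whose products bind the yeast WASP protein Las17 through an SH3 domain. LSB3 was at 53.2, 52.7 and 59.5% unspliced in prp2-1, against 4.29, 6.28 and 6.12% in WT (log2 change 4.39, SE 0.363). YSC84 was at 97.4, 95.8 and 97.8% in prp2-1, against 16.5, 14.4 and 11.9% in WT (log2 change 7.65, SE 0.444). The paralogs thus ended far apart, LSB3 with nearly as many spliced as unspliced reads and YSC84 with almost none spliced. PAL2 encodes a protein of the early endocytic coat. It kept 7, 16 and 20 spliced reads beside 868, 971 and 1855 unspliced reads in prp2-1, against 1346, 1709 and 2553 spliced and 133, 132 and 198 unspliced reads in WT. Its unspliced percents were 99.2, 98.4 and 98.9% in prp2-1 and 8.99, 7.17 and 7.20% in WT. The log2 change of 9.99 (SE 0.427) ranked 7 of 274, and those of YSC84 and ARP2 ranked 35 and 72.

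**Figure D2:**
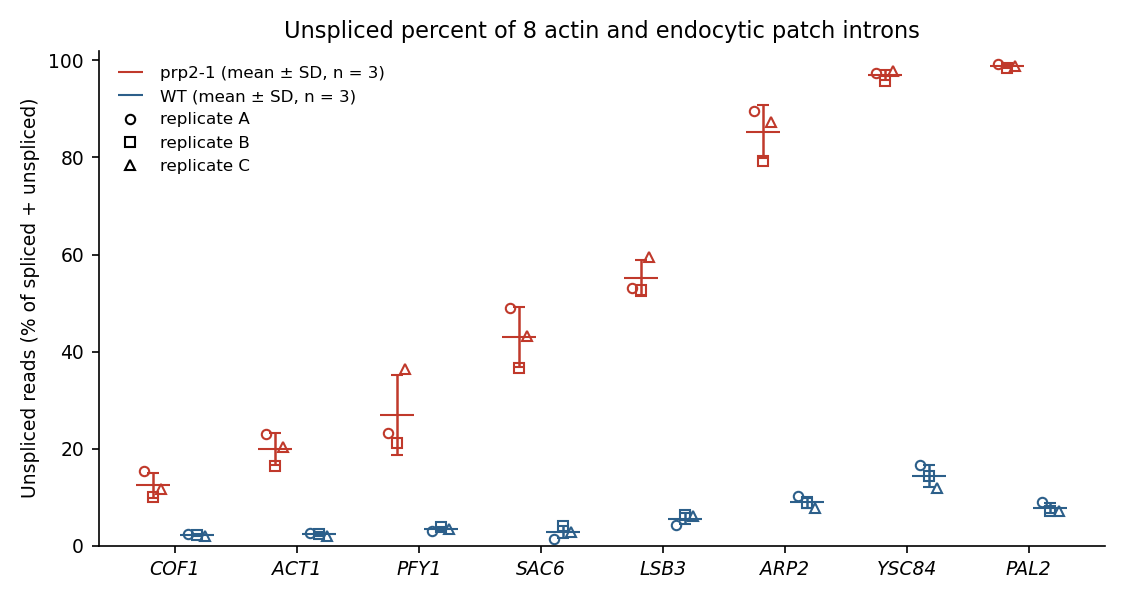
Unspliced reads as a percent of spliced plus unspliced reads for each gene, with prp2-1 left of WT; symbols are libraries, and horizontal bars with whiskers give the mean and SD of 3. The prp2-1 means climb from 12.4% in COF1 to 98.8% in PAL2, while WT means stay between 2.16% and 14.3%.

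The adjusted p of the ratio was at most 3.71e-14 among the 8 (COF1, edgeR), and at most 4.44e-05 when limma was run on the log2 ratio of each library (COF1). Ranked among the tested introns, the other changes were SAC6 at 134, LSB3 at 155, ACT1 at 204, PFY1 at 206 and COF1 at 231 of 274. The median log2 change of the 8 was 4.56, against 4.64 over all tested introns and 5.39 over tested introns outside the ribosomal protein genes (genes named RPL or RPS). Median unspliced percents of the 8 were 49.1% in prp2-1 and 4.49% in WT. Outside the ribosomal protein genes the 171 tested introns had medians of 90.6% in prp2-1 and 10.8% in WT.

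Ordered by level in prp2-1, the introns ran COF1, ACT1, PFY1, SAC6, LSB3, ARP2, YSC84 and PAL2. Neighbours in this order did not overlap over the 3 libraries, except ACT1 and PFY1. The WT order was COF1, ACT1, SAC6, PFY1, LSB3, PAL2, ARP2 and YSC84. In WT the first 4 overlapped from neighbour to neighbour and PAL2 overlapped ARP2. LSB3 at 5.56% ± 1.10 and YSC84 at 14.3% ± 2.30 overlapped no neighbour. PAL2 was thus the highest of the 8 in prp2-1, but below ARP2 and YSC84 in WT by the mean. All 8 introns were lowest in replicate B among the prp2-1 libraries, which also had the lowest unspliced share of all its reads, 7.47% against 8.94% in A and 11.0% in C.

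**Figure D3:**
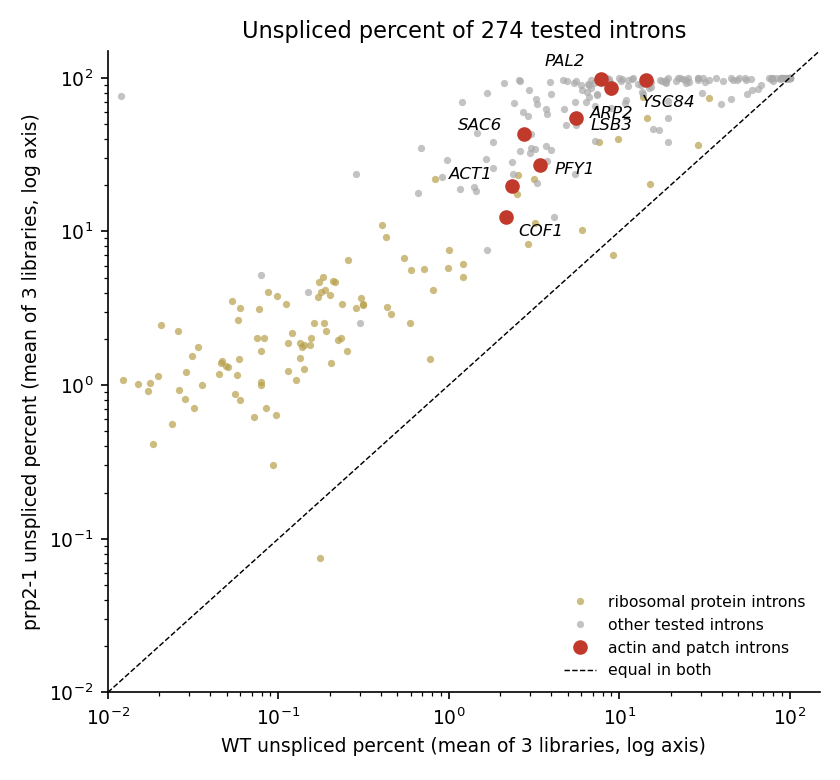
Mean unspliced percent in prp2-1 against WT for 274 tested introns on log axes; large points are the 8 genes and the dashed line marks equal values. The 8 lie above the line, from 12.4% (COF1) to 98.8% (PAL2) in prp2-1, and 1 intron with 0% in WT is drawn at the left edge.

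The paralogs LSB3 and YSC84 were set against each other within libraries. The log2 ratio of LSB3 minus that of YSC84 was -4.73 ± 0.342 in prp2-1 and -1.51 ± 0.561 in WT, a change of -3.22 (exact two-sided permutation p = 0.1, the smallest that 3 against 3 libraries can give; 0.15 adjusted over 3 pairs). The values of the 2 groups did not overlap. Both genes have 47 coding bases before the intron and share GTATGT and TACTAAC. Their introns were 45.0% identical when aligned, their first coding exons 76.6% and the first 100 bases of their second exons 75.5%, with no identical run longer than 14 bases. ACT1 minus ARP2 was -4.62 ± 0.296 in prp2-1 and -2.05 ± 0.0582 in WT, a change of -2.57 (exact p = 0.1, adjusted 0.15). COF1 minus PFY1 was -1.37 ± 0.686 in prp2-1 and -0.67 ± 0.317 in WT, a change of -0.70 within the spread of the libraries (exact p = 0.3, adjusted 0.3).

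The next comparisons took unspliced and spliced reads apart, with both scaled by the total reads of the library. Unspliced reads rose in all 8 genes, within a span of 1.06 on the log2 scale, while changes of spliced reads spanned 7.03. Log2 changes of unspliced reads ran from 2.35 (COF1) to 3.41 (ARP2), and those of spliced reads from -0.08 (ACT1) to -7.11 (PAL2). The SD of the change over the 8 introns was 0.423 for unspliced and 2.35 for spliced reads, beside 1.83 and 2.37 over all 274. Unspliced reads were called higher in 8 of 8, where 91.2% of tested introns were higher and 2.19% lower, with a highest adjusted p of 1.165e-11 (SAC6, edgeR). Spliced reads were called lower in 7 of 8 and higher in 0, where 57.7% of tested introns were lower and 6.2% higher. The tested introns include 103 of ribosomal protein genes, whose median log2 change of spliced reads was 0.016. The share called lower outside those genes was not counted, so 7 of 8 does not set these genes apart. The median log2 changes of the 8 were 2.80 for unspliced and -1.86 for spliced reads, against 3.02 and -0.91 over all tested introns. Outside the ribosomal protein genes the medians were 2.64 for unspliced and -2.63 for spliced reads. The medians of the 8, though not each gene, thus lay between these and those over all tested introns.

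ACT1 had 2101 ± 843 unspliced RPM in prp2-1 and 213 ± 37.6 in WT. Its spliced reads were 8225 ± 1691 RPM in prp2-1 and 8905 ± 110 in WT, a log2 change of -0.08 (SE 0.117, adjusted p = 0.589, edgeR). Without prp2-1 replicate A this change was -0.25 (adjusted p = 0.0144) and without replicate B it was 0.0052 (adjusted p = 0.996, edgeR), so its direction depended on the libraries used. COF1 spliced reads fell by 0.34 on the log2 scale (SE 0.105, adjusted p = 0.0155, edgeR), and this call was lost without prp2-1 replicate B (adjusted p = 0.0553) or WT replicate C (0.0547). PFY1 spliced reads were 4297 ± 393 RPM in prp2-1 and 8894 ± 492 in WT (log2 change -1.01, SE 0.0891). PFY1 and ACT1 overlapped in unspliced percent in prp2-1, and the difference between their spliced changes was not tested.

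Spliced reads of the other 5 genes fell, with log2 changes between -1.69 and -7.11. LSB3 had 265 ± 22.0 spliced RPM in prp2-1 and 878 ± 18.5 in WT (log2 change -1.69, SE 0.119). SAC6 changed by -2.03 (SE 0.171) and ARP2 by -2.58 (SE 0.176) on the log2 scale. The largest losses of the 8 were in YSC84 and PAL2, which also had the highest unspliced percents in prp2-1. YSC84 had 8.23 ± 0.894 in prp2-1 and 187 ± 22.0 in WT (-4.45, SE 0.229), and PAL2 had 6.20 ± 2.52 in prp2-1 and 904 ± 97.0 in WT (-7.11, SE 0.258). Among the 7 called genes the adjusted p was highest in COF1, and the next was 1.33e-06 in PFY1 (edgeR).

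**Figure D4:**
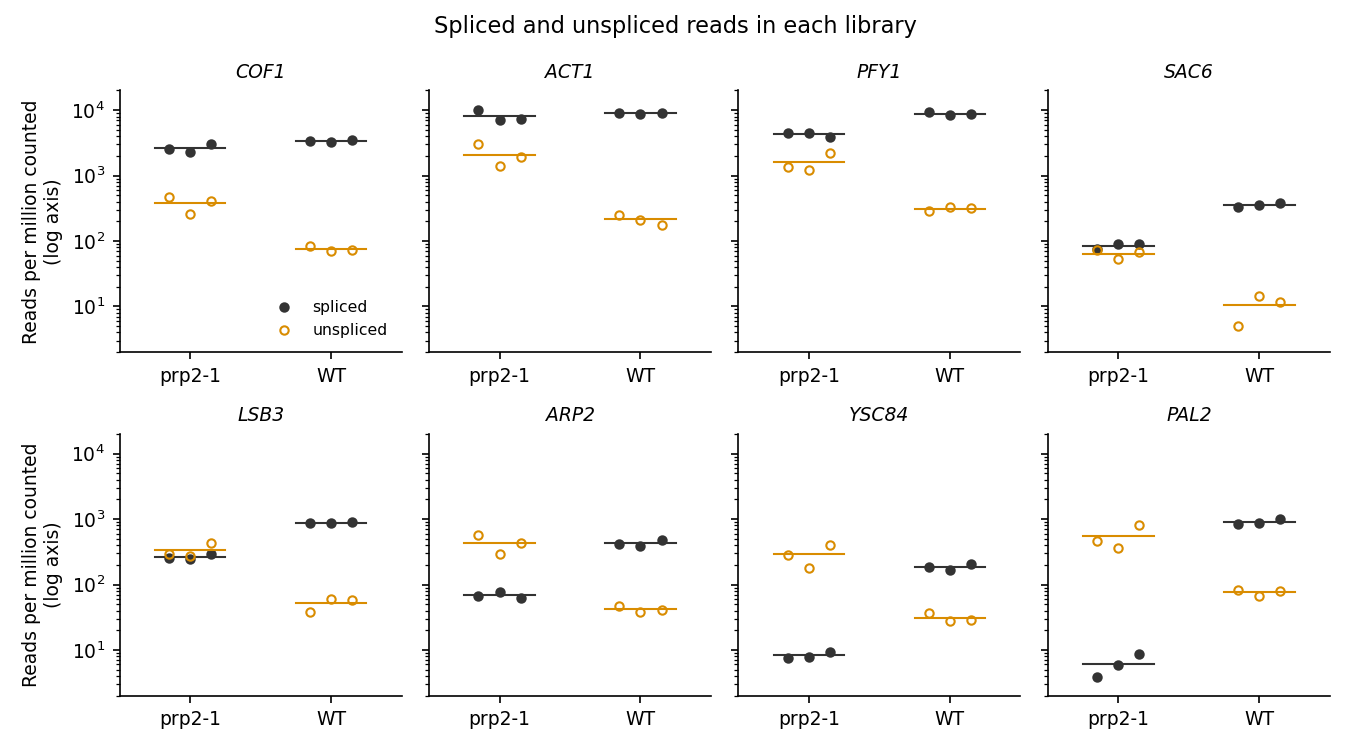
Spliced (filled) and unspliced (open) reads in RPM for each gene on a shared log axis, with prp2-1 left of WT; points are libraries A to C and lines their means. In PAL2 spliced reads averaged 6.20 RPM in prp2-1 and 904 in WT, while in ACT1 they averaged 8225 in prp2-1 and 8905 in WT.

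Total reads, spliced and unspliced together, were called lower in 4 of 8 genes and higher in 0, where 23.4% of tested introns were lower and 20.1% higher. The median log2 change was -0.39 over the 8. It was -0.15 over tested introns outside the ribosomal protein genes and 0.075 over those within them. SAC6 fell by 1.27 on the log2 scale (SE 0.163, adjusted p = 0.000188, edgeR), to 149 ± 6.22 RPM in prp2-1, against 368 ± 30.4 in WT. PFY1 and LSB3 fell by 0.61 each (SE 0.0669 and 0.155, adjusted p = 6.89e-05 and 0.0128, edgeR), and PAL2 fell by 0.78 (SE 0.264, adjusted p = 0.0405, edgeR). The PAL2 call was lost without prp2-1 replicate A or B or WT replicate A or C (adjusted p between 0.0658 and 0.109, edgeR). Its total reads in prp2-1 were 474, 369 and 826 RPM, against 917, 928 and 1093 in WT, so the groups did not overlap.

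ACT1, COF1, ARP2 and YSC84 did not pass this test, with log2 changes of 0.21, -0.18, 0.13 and 0.48 (adjusted p = 0.2295, 0.225, 0.631 and 0.168, edgeR). YSC84 was called higher without prp2-1 replicate B (log2 change 0.72, adjusted p = 0.035) and COF1 lower without prp2-1 replicate C (-0.28, adjusted p = 0.0372, edgeR). In these bulk cultures less RNA per cell cannot be told apart from fewer cells that hold the RNA. The choice of scaling moves these values: relative to the 13 tested introns over 98% unspliced in WT, the median total change of all introns shifted by -0.29, and 27 introns were higher and 94 lower in place of 55 and 64. With that scaling 4 of the 8 genes were again called lower, and ACT1 and ARP2, not called, turned to -0.0481 and -0.145.

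**Figure D5:**
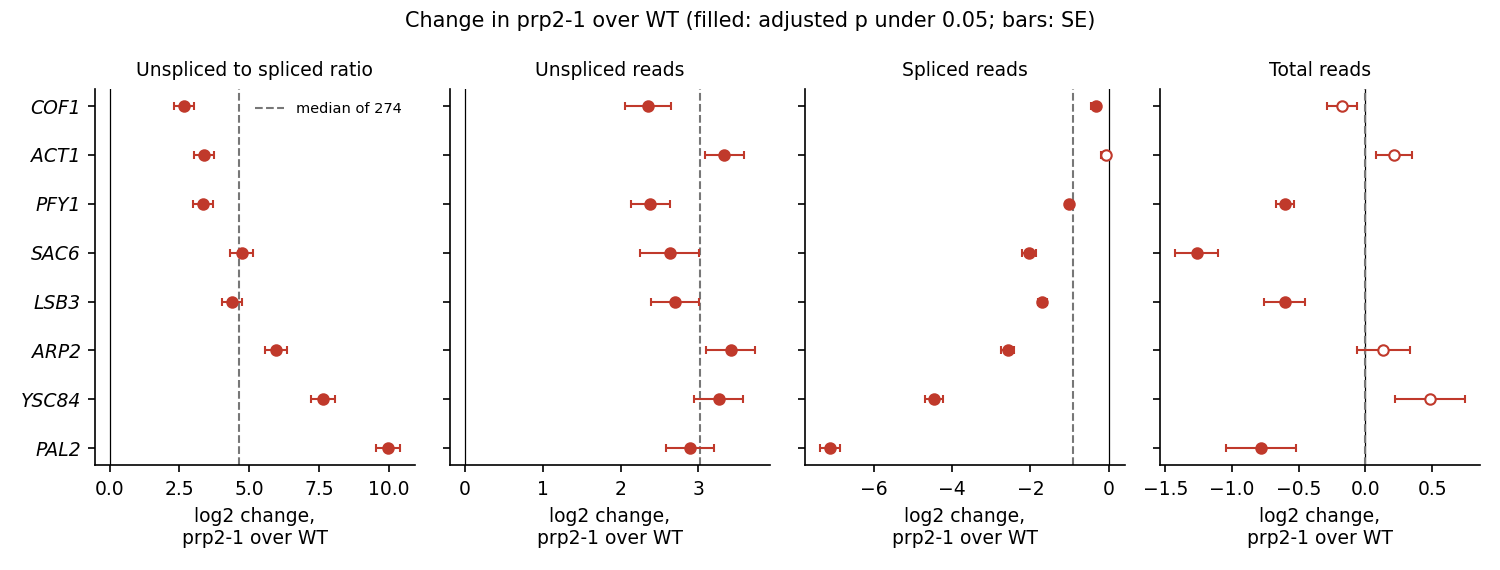
Log2 changes, prp2-1 over WT, of the unspliced to spliced ratio and of unspliced, spliced and total reads for each gene; bars are SE, filled points have an adjusted p under 0.05 and the dashed line is the median of 274 introns. Unspliced changes lie between 2.35 and 3.41 and spliced changes between -0.08 and -7.11.

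Other targeted genes of the cytoskeleton were read beside these. Of 6 tested introns in GIM4, GIM5, TUB1, TUB3, DYN2 and CIN2, all 6 had a higher ratio in prp2-1, 4 had more and 1 fewer unspliced reads, and 5 had fewer spliced reads. Over all tested introns 93.4% had a higher ratio, 91.2% more and 2.19% fewer unspliced reads, and 57.7% fewer spliced reads. GIM5, a subunit gene of the prefoldin chaperone that helps fold actin and tubulin, was 28.6% ± 8.31 unspliced in prp2-1 and 3.74% ± 2.24 in WT, on 62 unspliced reads in prp2-1 and 12 in WT. The other prefoldin gene, GIM4, was almost wholly unspliced in both groups, at 99.98% ± 0.0372 in prp2-1 and 99.8% ± 0.136 in WT, and was the gene with fewer unspliced reads (log2 change -0.70). Over 3 libraries GIM4 spliced reads numbered 1 in prp2-1 and 15 in WT. The higher ratio and fewer spliced reads of GIM4 thus rest on few reads. CIN2 had 32 spliced and 24 unspliced reads in prp2-1, against 87 and 16 in WT. The alpha-tubulin gene TUB1 was at 42.8% ± 2.93 in prp2-1 and 2.77% ± 1.16 in WT, close to SAC6 in each group. The median log2 change of the ratio was 3.41 over these 6 introns.

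The membrane list held SNC1, APS3, IST1 and DID4, which are genes of membrane traffic, and also GLC7. All 5 had a higher ratio, more unspliced and fewer spliced reads in prp2-1, with a median log2 change of the ratio of 6.52, where 93.4%, 91.2% and 57.7% of all tested introns were called in these directions. DID4, an ESCRT-III gene, was at 97.5% ± 0.467 unspliced in prp2-1 and 6.81% ± 2.21 in WT, near the values of PAL2. SNC1, which encodes a vesicle SNARE that cycles through endocytosis, was at 79.0% ± 2.08 in prp2-1 and 3.96% ± 0.524 in WT.

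The introns most like each gene were found by the Euclidean distance of log2 ratios over the 6 libraries, among tested introns outside the 8. Nearest to ACT1 were intron 2 of RPL7B (distance 0.683), RPS9A (0.903) and the phosphatidylinositol transfer gene SEC14 (0.986), the last with 23.7% unspliced in prp2-1 and 2.37% in WT. The nearest to COF1 was RPL2A (1.13), to PFY1 the prefoldin gene GIM5 (1.10), to SAC6 YPR063C (1.14) and to LSB3 ATG44 (0.740). SFT1 was nearest to ARP2 (1.33), CMC2 to YSC84 (0.851) and MCM21 to PAL2 (1.67). The ribosomal protein genes named here have duplicates, with which reads may be shared.

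Random draws of reads, deposited by the authors, were read for the same introns. At 800000 reads their means did not centre on the full counts for COF1, which was higher in all 6 libraries, at 13.3% drawn against 12.4% in full in prp2-1 and 2.57% against 2.16% in WT. The largest such gap over the 8 introns was 1.42 points, in COF1 in prp2-1 replicate A, and the cause was not tested. DYN2 intron 2 of the cytoskeleton list differed more, at 47.5% drawn against 70.2% in full in prp2-1 and 4.90% against 19.3% in WT. With 200000, 400000 or 800000 reads drawn per library and 5 draws each, the 2 groups did not overlap in 8 of 8 introns at any depth. These draws come from the libraries of the full counts, and the share of all introns without overlap was not counted. At 200000 reads the percent of ACT1 in prp2-1 lay between 14.6 and 23.2%, while that of SAC6 lay between 14.3 and 61.5% on 2 to 16 unspliced reads. PAL2 and YSC84 each had draws with 0 spliced reads in prp2-1 at that depth, and SAC6 had draws with 0 unspliced reads in WT at 200000 and 400000 reads. The draws share reads, so they are not replicates.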

How the data were processed

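Spliced and unspliced reads of targeted introns were measured by MPE-seq in 3 prp2-1 and 3 WT libraries of Saccharomyces cerevisiae, from 10 µg of RNA each. The values are raw read counts as deposited by the authors, for 309 introns of 298 genes, without normalization. Per the submitters' processing notes, fastp 0.19.5, HISAT2 2.2.1, SAMtools and build R64 were used; their roles, the assignment of reads and any collapse of duplicates are not stated there, so intervals cover counting error only. In the authors' table of drawn reads the headers Size and Seed are interchanged, judged by its totals, and the depth was taken from Seed.

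Introns with a mean of at least 10 reads (274) were fitted together in edgeR 4.0.16 (R 4.3.3) with robust quasi-likelihood tests and BH adjustment over all of them. The ratio test fitted spliced and unspliced counts side by side, with a term for each library, one for spliced or unspliced, and their interaction with genotype. Unspliced, spliced and total reads used genotype alone, with library totals and TMM factors of total reads (0.967 to 1.02). SEs were the absolute log2 change divided by the square root of F. Pairs of genes were compared by exact permutation, on log2 ratios with a pseudocount of 0.5. Scripts were tested on simulated data. Alternatives were DESeq2 1.42.0 (size factors of total reads, given to both read types), limma 3.58.1, no robust estimation, other filters and scalings, the drawn counts, the replicate letter as a block, and each library left out.

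Introns were placed from coding exons of the R64 annotation (280 of 309). The exact TACTAAC was searched on the coding strand. The sequence of the SAC6 intron is not reported here. The genes, lists and pairs were chosen with earlier results of these data known; stop codons, paralog identity and motif groups were described after values were seen. Named introns are the 8 genes, the nearest to each (3 for ACT1) and examples from the cytoskeleton and membrane lists.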

Additional observations from a re-analysis of the deposited data

How the results depend on the processing

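The number of the 8 genes called stayed at 8 for the ratio and 8 for unspliced reads under every alternative run. For spliced reads it was 7, with 6 to 8 when single libraries were left out, and for total reads 4, with 3 to 5. The letters A to C were shared by the strains. Deviations of same-lettered libraries correlated by 0.0924, 0.205 and 0.272 for the ratio, each above the highest value between different letters, 0.0834. For total reads they correlated by 0.263, -0.0869 and 0.00670, where the highest between different letters was 0.254. The main tests did not take the letters as pairs, and whether same-lettered libraries share an origin was not tested. With the replicate block the counts were again 8, 8, 7 and 4. The LSB3 minus YSC84 change of -3.22 had an unadjusted limma p of 3.65e-05, and ACT1 minus ARP2, -2.57, had 3.13e-05. That fit took the difference of the first gene to every other tested intron, so its rows share that gene and are not independent. The pairs were chosen with earlier results known, so these p-values do not replace those of the exact test. ACT1 spliced reads were called without prp2-1 replicate A (-0.248), and ARP2 total reads ran from -0.0730 to 0.297 when 1 library was left out. Values that changed sign were not called in either case: spliced reads of ACT1 without prp2-1 replicate B (0.00522), total reads of ARP2 without prp2-1 replicate A (-0.0730), and total reads of ACT1 and ARP2 scaled to the introns over 98% unspliced in WT (-0.0481 and -0.145). Log2 changes of the ratio stayed between 2.47 and 2.82 for COF1 and between 9.81 and 10.3 for PAL2. Adjusted p-values of the ratio were far larger without robust estimation (1.65e-09 for ACT1, edgeR) than with it (2.12e-19). Over all tested introns, spliced reads were called higher in 17, in 7 to 11 without 1 WT library and in 1 with the scaling to introns over 98% unspliced. Total reads were called higher in 55, in 33 and 36 without WT replicate A and B, and in 27 with that scaling. The ratio was lower in 0 introns by edgeR and in 1 by DESeq2, by limma, and without prp2-1 replicate C or WT replicate A or C. The cause was not tested. Depth limits SAC6 through its unspliced reads in WT (8 in replicate A), and PAL2 and YSC84 through their spliced reads in prp2-1 (7 and 14 in replicate A).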
